A study of Neocallimastix californiae and Anaeromyces robustus with 43 samples.

Results

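The 80 transcripts described here come from the anaerobic gut fungus Neocallimastix californiae and were chosen for being lower on cellobiose and alfalfa stems than on every one of 5 other carbon sources. They are 80 of the 29649 transcripts in the deposited table and belong to 78 loci. For each transcript the median TPM (a transcript's level corrected for its length and scaled to the same total in every library) was taken per carbon source. H is the lowest of the medians on reed canary grass, switchgrass, corn stover, maltose and glucose. L is the higher of the medians on alfalfa stems and cellobiose. The score is log2((H + 1)/(L + 1)). H had to reach 5 TPM, as it did for 3606 transcripts, and the score had to be above 0, which left 180 transcripts. The 80 highest scores among them make the list. The difference between the 5 high carbon sources and the 2 low ones was therefore used to choose the members, and its values below are a description with no test. The 3 Avicel libraries had no part in the choice.

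The study grew whole cultures of the fungus on single carbon sources and sequenced polyadenylated RNA from exponential growth. There were 3 libraries each on Avicel (microcrystalline cellulose), reed canary grass, corn stover, maltose, glucose, alfalfa stems and cellobiose, and 2 on switchgrass. Per the labels' protocols the cultures held about 10 ml of Medium C at 39 °C and were taken at a gas pressure of at least 5 psi. The labels do not say whether replicates came from separate cultures, so a p-value compares a difference with the spread among libraries, part of which may be technical.

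Anaerobic gut fungi live in the digestive tract of herbivores and break plant cell walls with secreted enzymes, many of which are held together in complexes called cellulosomes. Cellobiose is the disaccharide released when cellulose is cut, and beta-glucosidases split it to glucose. Maltose is the disaccharide of starch, grasses hold cellulose with hemicellulose and lignin, and alfalfa is a legume with a different cell wall make-up. In fungi the genes for such enzymes are commonly switched by the sugars at hand, glucose being a frequent repressor. The files give the transcripts as numbered loci without gene names or sequences, so no function is stated for any member, and the lists of wall-degrading enzymes, transporters and other groups could not be matched to them.

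The 23 libraries held 2583040 to 10816458 expected counts (median 4560473). Cellobiose replicate 3 stands apart among the 3 cellobiose libraries, and this touches the choice of members. It was below both other cellobiose libraries in 54 of the 80 members and in 30 of the 34 with a score of at least 1, against 33.9% of the transcripts with H of at least 5 TPM. The median level of those 34 was 4.03, 2.36 and 0.85 TPM in cellobiose replicates 1, 2 and 3. The part of this library in the low cellobiose levels was not tested beyond leaving it out. A list made without it shared 73 of the 80 members, and all 34 with a score of at least 1. In whole cultures, fewer cells of a stage that carries a transcript and less of that transcript per cell cannot be told apart.

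The members form a steep head and a long shallow tail. Scores ran from 4.86 down to 0.205 with a median of 0.593. Only 11 members reached a score of 2 and 34 a score of 1, while 33 lay under 0.5. The division at a score of 1, used below, was made after the values were seen. The word "off" applies to few members. L was under 1 TPM in 3 members and under 5 TPM in 28, and it was 5 TPM or more in 52 and at least 100 TPM in 11. H had a median of 19.3 TPM (5.04 to 1153), and L a median of 7.24 TPM (0 to 995). The median on alfalfa stems was under 1 TPM in 3 members and the median on cellobiose in 12. Alfalfa stems were the higher of the pair in 53 of the 80. H was set by glucose in 45 members, by maltose in 16, by switchgrass in 7, by corn stover in 7 and by reed canary grass in 5.

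**Figure D1:**
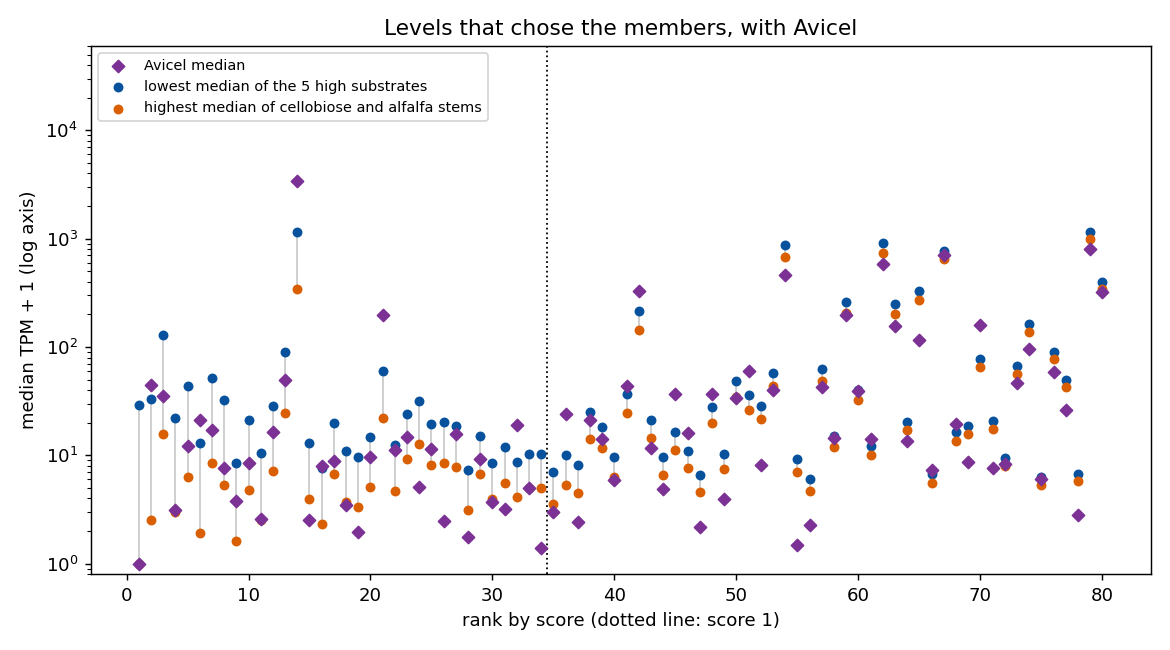
Median TPM + 1 (log axis) of each of the 80 members, ordered by rank of score. Diamonds are the Avicel median, blue points the lowest median of the 5 high carbon sources (H) and orange points the higher median of alfalfa stems and cellobiose (L); the dotted line marks a score of 1. The gap between blue and orange closes to the right, where both reach up to 1153 and 995 TPM.

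In 42 of the 80 members every one of the 14 libraries of the high carbon sources was above every one of the 6 libraries of alfalfa stems and cellobiose. The same held for 0.574% of all transcripts tested and for 1.16% of those with H of at least 5 TPM, that is, for those 42 members alone. The rule used this contrast, so nothing is read from the count. Among the 34 members with a score of at least 1 the libraries separated in 32, and among the other 46 in 10. They separated in none of the 80 transcripts ranked 81 to 160 by the same score. Scores changed by little across the end of the list. The last members inside were Locus1941v1rpkm47.26 (score 0.225), Locus274v1rpkm890.07 (0.212) and Locus357v1rpkm623.98 (0.205, H of 393 and L of 341 TPM). The first outside were Locus129v3rpkm6.63_PRE (0.205), Locus3625v1rpkm18.67 (0.203) and Locus176v1rpkm1781.78 (0.201).

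**Figure D2:**
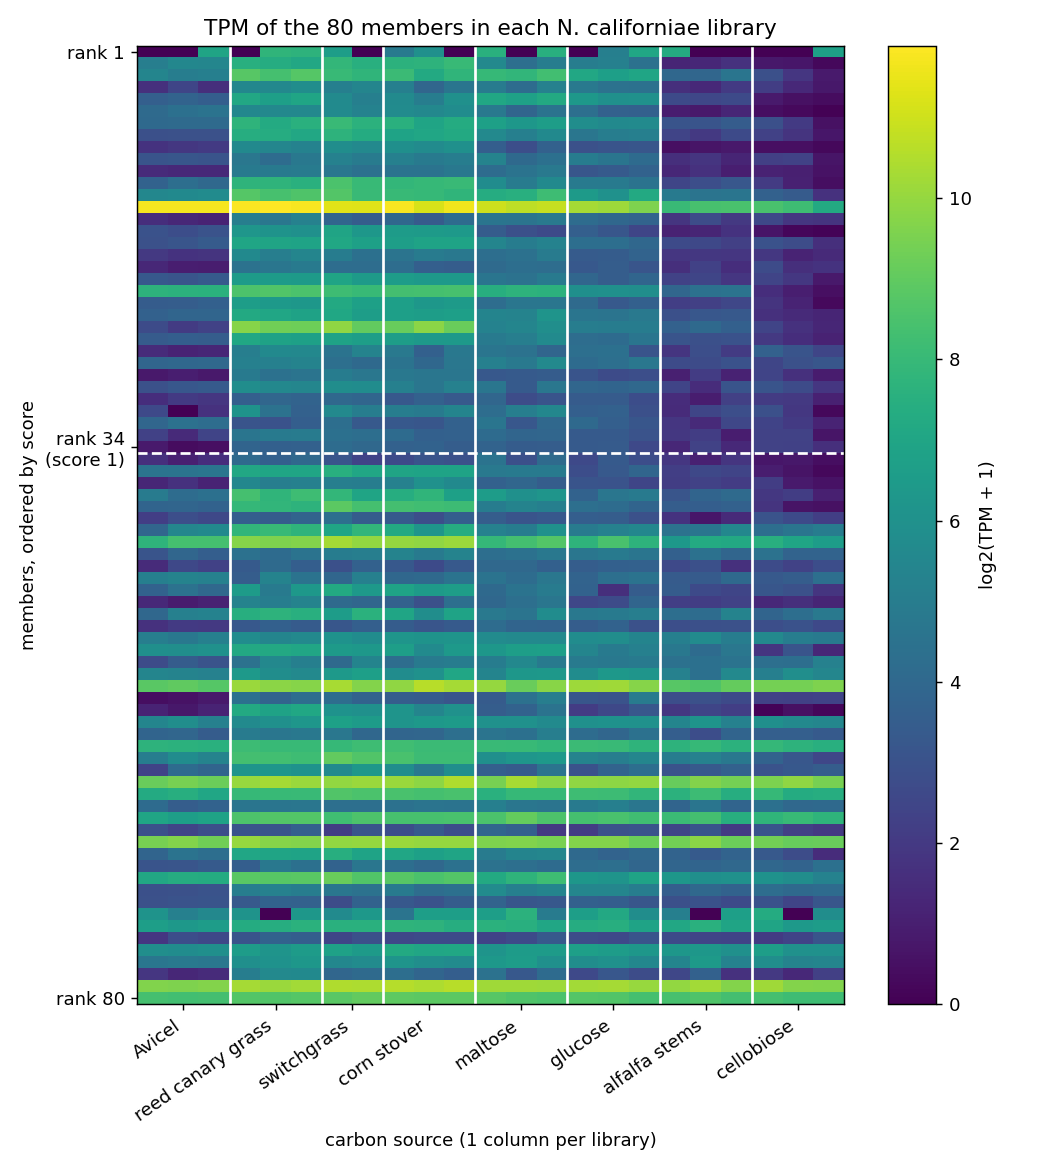
Level of the 80 members as log2(TPM + 1), 1 row per member in order of score and 1 column per library, grouped by carbon source. Above the dashed line (score 1) the alfalfa stems and cellobiose columns at the right are darker than the grass, maltose and glucose columns; below it many rows differ less between carbon sources, though some, such as Locus1821v1rpkm51.77 and Locus869v1rpkm151.49, are still dark on cellobiose and bright on the grasses, and the top row alternates between listed zeros and high values.

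Locus1616v1rpkm61.90 (rank 2, score 3.70) shows the pattern at its steepest among members detected in every library. It had 182, 164 and 137 TPM on reed canary grass, 230 and 183 TPM on switchgrass, and 202, 207 and 256 TPM on corn stover. On maltose it had 47.5, 19.3 and 32.3 TPM, on glucose 31.9, 35.3 and 20.6 TPM, on alfalfa stems 1.38, 1.53 and 2.23 TPM, and on cellobiose 0.69, 0.65 and 0.21 TPM. The grasses were highest, maltose and glucose overlapped each other, and no cellobiose library reached the lowest alfalfa stems library. The cellobiose values rest on 10, 9 and 5 expected counts.

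Locus5614v1rpkm9.27 (rank 6) had the same order at a lower level. Its libraries held 37.3 to 54.2 TPM on the grasses, 13.6 to 27.1 TPM on maltose, 11.3 to 19.0 TPM on glucose, 0.93, 0.76 and 1.42 TPM on alfalfa stems, and 0.35, 0.25 and 0.04 TPM on cellobiose. The lowest of these values is a single expected count. Locus2921v1rpkm26.05 (rank 9) had 37.2 to 61.7 TPM on the grasses, 6.21 to 12.0 TPM on maltose, 6.71 to 7.95 TPM on glucose, 0.42 to 0.78 TPM on alfalfa stems and 0.20 to 0.41 TPM on cellobiose. With the top-ranked Locus288v1rpkm828.86, described below, they are the 3 members whose L was under 1 TPM.

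Other members of the head kept a measurable level there. Locus773v1rpkm189.84 (rank 3) had medians of 433 TPM on reed canary grass, 253 TPM on maltose and 127 TPM on glucose, and its libraries held 14.6, 14.3 and 23.5 TPM on alfalfa stems and 6.41, 2.73 and 0.82 TPM on cellobiose. Locus1210v1rpkm94.84 (rank 7) had 121 to 267 TPM on the grasses and 48.4 to 56.6 TPM on glucose, against 7.38 to 10.1 TPM on alfalfa stems and 6.55, 3.07 and 0.43 TPM on cellobiose. Locus812v1rpkm175.05 (rank 8) had 119 to 204 TPM on the grasses and 24.3 to 34.2 TPM on glucose, against 2.98 to 5.42 TPM on alfalfa stems and 3.97, 2.49 and 0.66 TPM on cellobiose. In all 3 the third cellobiose library was the lowest of the 23. The first cellobiose library was just under the alfalfa stems libraries in Locus1210v1rpkm94.84 and within their range in Locus812v1rpkm175.05. Locus5237v1rpkm10.47 (rank 10) had 17.6 to 36.9 TPM on the grasses, 16.6 to 30.4 TPM on glucose, 1.38 to 2.56 TPM on alfalfa stems and 3.77, 4.06 and 0.57 TPM on cellobiose.

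The highest score of all belongs to a transcript that was detected in some libraries of every carbon source and not in others. Locus288v1rpkm828.86 (score 4.86) was listed at 0 in 11 of the 23 libraries, of which 5 were on high carbon sources, 4 on low ones and 2 on Avicel. It had 0, 216 and 206 TPM on reed canary grass, 97.5 and 0 TPM on switchgrass, 28.1, 62.3 and 0 TPM on corn stover, and 183, 0 and 182 TPM on maltose. It had 0, 33.7 and 129 TPM on glucose, 160, 0 and 0 TPM on alfalfa stems, and 0, 0 and 108 TPM on cellobiose. Every carbon source has a library at 0 and a library above it, and the score follows from which of them is the median. The highest expected count was 59.6 in any library, and the ratio of counts to TPM gives it an effective length of 0.0219 times that of the median transcript. Locus1934v1rpkm47.39 (rank 73), named after its values were seen, had a relative effective length of 0.0143 and was listed at 0 in 3 libraries, 1 on reed canary grass, 1 on alfalfa stems and 1 on cellobiose.

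**Figure D3:**
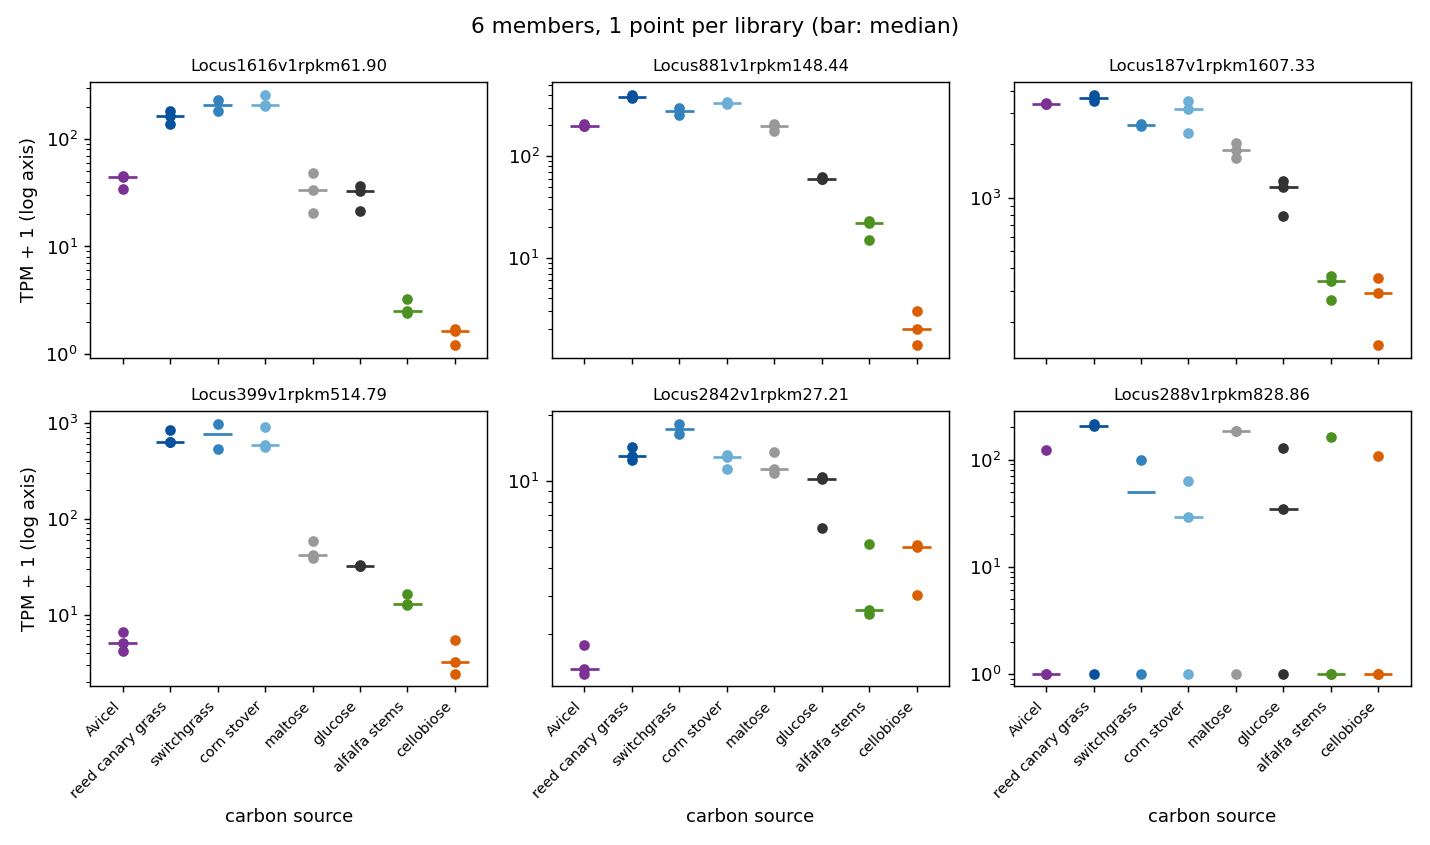
TPM + 1 (log axes that differ between panels) of 6 members in each library by carbon source; points are libraries and bars are medians. Locus1616v1rpkm61.90, Locus881v1rpkm148.44 and Locus187v1rpkm1607.33 are high on Avicel, Locus399v1rpkm514.79 and Locus2842v1rpkm27.21 are low on it, and Locus288v1rpkm828.86 has libraries at 0 and libraries at up to 216 TPM within carbon sources.

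Avicel, which the rule left aside, asks whether cellulose itself goes with the high or with the low carbon sources. On the scale of the rule 56 of the 80 members (70%) had an Avicel median of at least 5 TPM, 19 lay between 1 and 5 TPM, and 5 were under 1 TPM. The 5 were Locus288v1rpkm828.86, Locus3650v1rpkm18.48 (0.98 TPM), Locus1723v1rpkm56.26 (0.75 TPM), Locus2842v1rpkm27.21 and Locus2348v1rpkm36.24. Among the 34 members with a score of at least 1 the counts were 20, 10 and 4, and among the other 46 they were 36, 9 and 1. Of all transcripts with H of at least 5 TPM, 95% had an Avicel median of at least 5 TPM and 10 were under 1 TPM. The Avicel median was above H in 17 members, between L and H in 25 and below L in 38. In the 34 these counts were 6, 18 and 10, and in the other 46 they were 11, 7 and 28. In ranks 81 to 160 they were 9, 2 and 69. The score sets how wide the gap between L and H is, so nothing is read from the differences between these groups.

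Avicel was higher than glucose in some members and lower in others, as it was over the whole table. By edgeR's quasi-likelihood test over all transcripts, called at an adjusted p under 0.05, 10 members were higher on Avicel than on glucose and 26 were lower. The whole table of 14800 tested transcripts had 15.1% higher and 23.8% lower, and ranks 81 to 160 had 7.5% and 10%. Over the transcripts with H of at least 5 TPM the shares were 27.6% and 13.5%, while those of the members were 12.5% and 32.5%. Glucose was one of the carbon sources required to be high and set H in 45 members, which bears on this difference in balance, so nothing is read from it. The median log2 fold change was -0.33 over the members and -0.08 over all transcripts. When libraries were scaled by their size alone, without TMM, the split was 5 higher and 43 lower, while the median of all transcripts moved to -0.55 and that of the members to -0.79.

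The log2 fold changes of the 26 members that fell on Avicel ran between -4.38 and -0.56. Locus2842v1rpkm27.21 had 0.79, 0.32 and 0.39 TPM on Avicel, from 11, 4 and 7 expected counts, against 9.24, 9.49 and 5.12 TPM on glucose, and its log2 fold change was -3.48 ± 0.46 (SE, edgeR adjusted p = 1.26e-05). Locus2348v1rpkm36.24 had 0.35, 0.50 and 0.78 TPM on Avicel against 8.17, 7.36 and 29.9 TPM on glucose, and it fell by 4.38 on the log2 scale (SE 0.66, edgeR adjusted p = 6.50e-05). Locus3158v1rpkm23.21 had 1.80, 1.26 and 1.46 TPM on Avicel against 19.1, 20.1 and 7.42 TPM on glucose (log2 fold change -2.84 ± 0.47, edgeR adjusted p = 1.21e-04). In all 3 every Avicel library was below every glucose library.

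In the same members Avicel was also below the low carbon sources. On alfalfa stems Locus2348v1rpkm36.24 had 6.09, 6.69 and 5.30 TPM and on cellobiose 4.08, 3.96 and 4.19 TPM, and Avicel was lower than both (log2 fold changes of -3.35 ± 0.66 and -2.56 ± 0.65). For Locus2842v1rpkm27.21 the log2 fold changes were -2.13 ± 0.50 against alfalfa stems (1.48, 4.16 and 1.59 TPM) and -2.43 ± 0.48 against cellobiose (4.12, 4.0 and 2.03 TPM). Locus3158v1rpkm23.21 fell against cellobiose by 2.08 on the log2 scale (SE 0.47), and its value against alfalfa stems, -1.28 ± 0.49, did not pass the threshold (edgeR adjusted p = 0.0637). By its median, Avicel was the carbon source with the lowest level of all 3 transcripts.

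Other members fell on Avicel against glucose without lying below both low carbon sources there. Locus399v1rpkm514.79 had 5.64, 3.20 and 4.10 TPM on Avicel, 531 to 980 TPM on the 3 grasses, 38 to 57.2 TPM on maltose, 31.7, 31.1 and 31.1 TPM on glucose, 11.9, 15.6 and 11.5 TPM on alfalfa stems, and 4.44, 2.23 and 1.42 TPM on cellobiose. The Avicel and cellobiose libraries overlapped, and Avicel was lower than glucose (log2 fold change -2.39 ± 0.43, edgeR adjusted p = 2.36e-04) and lower than alfalfa stems (-1.50 ± 0.42, edgeR adjusted p = 0.0143). Locus2302v1rpkm37.07 (rank 4) had 2.14, 4.52 and 2.06 TPM on Avicel against 26.9, 21.1 and 20.6 TPM on glucose, 2.03, 1.57 and 3.02 TPM on alfalfa stems and 3.42, 1.55 and 0.71 TPM on cellobiose. Avicel overlapped both low carbon sources there, and the log2 fold change against glucose was -2.54 ± 0.47 (edgeR adjusted p = 3.66e-04). Locus1619v1rpkm61.70 (rank 5) lay in between, with 11.2, 13.0 and 10.7 TPM on Avicel, 60.7 to 78.8 TPM on glucose, 4.76 to 5.43 TPM on alfalfa stems and 0.31 to 0.82 TPM on cellobiose, and it fell against glucose by 2.10 on the log2 scale (SE 0.33, edgeR adjusted p = 7.97e-05).

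The members that rose on Avicel against glucose include the most abundant one. Locus187v1rpkm1607.33 (rank 14, score 1.75) had 3369, 3382 and 3418 TPM on Avicel, 3629, 3797 and 3485 TPM on reed canary grass, 2613 and 2537 TPM on switchgrass, and 3501, 2316 and 3166 TPM on corn stover. It had 2044, 1684 and 1850 TPM on maltose, 1238, 1146 and 783 TPM on glucose, 263, 340 and 360 TPM on alfalfa stems, and 352, 291 and 147 TPM on cellobiose. Avicel lay among the grasses, the order below them was maltose, glucose and then the low carbon sources, and alfalfa stems and cellobiose overlapped. Its log2 fold change on Avicel against glucose was 2.16 ± 0.31 (edgeR adjusted p = 2.53e-05).

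Locus881v1rpkm148.44 (rank 21) had 206, 196 and 195 TPM on Avicel, 255 to 399 TPM on the grasses, 177, 205 and 197 TPM on maltose, 59.2, 61.9 and 58.0 TPM on glucose, 14.1, 20.9 and 22.1 TPM on alfalfa stems, and 1.98, 0.99 and 0.39 TPM on cellobiose. Avicel and maltose overlapped, and each step below them was free of overlap. The log2 fold change on Avicel was 2.21 ± 0.32 against glucose (edgeR adjusted p = 2.93e-05). Locus2209v1rpkm39.38 (rank 36) had 23.1, 23.2 and 24 TPM on Avicel against 6.08, 8.99 and 13.5 TPM on glucose, and it rose by 1.73 ± 0.36 on the log2 scale (edgeR adjusted p = 7.86e-04). Locus1616v1rpkm61.90 and Locus5614v1rpkm9.27 were also called higher, at 0.95 ± 0.31 and 0.94 ± 0.32 (edgeR adjusted p = 0.0186 and 0.0239), but their Avicel and glucose libraries overlapped and library size alone ended both calls (adjusted p up to 0.171 and 0.168 over the alternatives). Leaving out Avicel replicate 3 or glucose replicate 3 did so for both, and leaving out glucose replicate 2 for Locus5614v1rpkm9.27.

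Set against the low carbon sources, Avicel was higher in more members than it was lower. Against cellobiose 33 members rose on Avicel and 7 fell, where the whole table had 6.70% higher and 13.8% lower, and the transcripts with H of at least 5 TPM 12.9% and 11.5%. Against alfalfa stems 19 rose and 11 fell, where the whole table had 12% higher and 12.7% lower, and those with H of at least 5 TPM 18.5% and 13.2%. Both low carbon sources were low by the rule, which favours a higher call for Avicel, and the comparisons share the 3 Avicel libraries. In the 34 members with a score of at least 1 the counts against cellobiose were 21 higher and 2 lower, and in the other 46 they were 12 and 5. Against alfalfa stems they were 13 higher and 3 lower in the 34, and 6 and 8 in the 46. A high score goes with a low level on both by construction, so nothing is read from the difference between the 34 and the 46. With library size alone the counts were 30 higher and 13 lower against cellobiose, and 19 and 17 against alfalfa stems, with the median of all transcripts at -0.37 and -0.25.

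The largest fold changes against cellobiose belonged to Locus881v1rpkm148.44, at 7.84 ± 0.43 (edgeR adjusted p = 4.04e-10), Locus5614v1rpkm9.27, at 6.98 ± 0.48 (5.68e-09), and Locus1616v1rpkm61.90, at 6.67 ± 0.43 (2.99e-09). Low levels on cellobiose and alfalfa stems chose the members, so the fold changes and p-values of this paragraph are given as values. On Avicel Locus1616v1rpkm61.90 had 33.0, 44.6 and 43.5 TPM and Locus5614v1rpkm9.27 had 16.4, 20.2 and 22.1 TPM, so every Avicel library exceeded every cellobiose library many times over. The cellobiose libraries held 10, 9 and 5 expected counts of Locus1616v1rpkm61.90 and 6, 4 and 1 of Locus5614v1rpkm9.27. Against alfalfa stems the largest were Locus1616v1rpkm61.90 (4.66 ± 0.38), Locus5614v1rpkm9.27 (4.33 ± 0.40) and Locus187v1rpkm1607.33 (3.49 ± 0.33). Locus869v1rpkm151.49, with 1.30, 0.72 and 1.28 TPM on Avicel against 2.78, 4.63 and 3.67 TPM on alfalfa stems, fell by 1.59 on the log2 scale (SE 0.53, edgeR adjusted p = 0.0353). That call was lost in 7 of 15 alternatives (adjusted p up to 0.133), among them leaving out any Avicel library and leaving out alfalfa stems replicate 2 or 3.

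**Figure D4:**
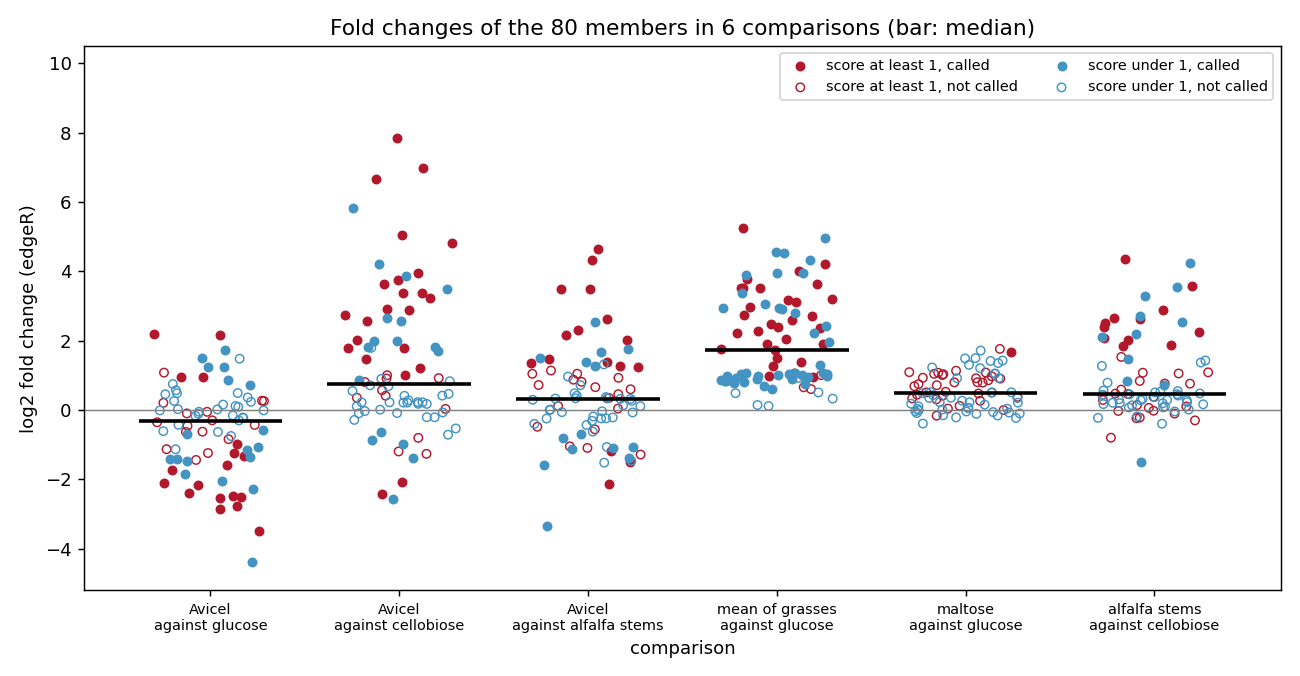
Log2 fold change from edgeR of each of the 80 members in 6 comparisons, the first-named group over the second. Red points have a score of at least 1 and blue points a score under 1, filled points were called at an adjusted p under 0.05, and bars are medians. The members spread to both sides of 0 on Avicel against glucose, and all 80 lie above 0 on the grasses against glucose.

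Among the carbon sources that had to be high, the grasses stood out. Taken as the equal-weight mean of reed canary grass, switchgrass and corn stover, they were called higher than glucose in 71 members and lower in none, where the whole table had 18% higher and 31.4% lower. Over the transcripts with H of at least 5 TPM the shares were 38.5% and 20.8%. All carbon sources in this comparison entered the rule, and glucose set H in 45 members. The count does not set the members apart from those just outside the list, since 75 of the transcripts ranked 81 to 160 were called higher and none lower. The median log2 fold change was 2.38 in the 34 members with a score of at least 1 and 1.02 in the other 46, against 1.07 in ranks 81 to 160 and -0.25 over all transcripts. The score that divides these groups is computed from the same grass and glucose medians, so nothing is read from their order.

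Scaling weighs on the smaller of these changes. With library size alone the median of all transcripts moved to -0.83, and 49 members were called higher and 1 lower. In the 34 members with a score of at least 1, 26 were then higher with a median of 1.78, and in the other 46, 23 were higher and 1 lower with a median of 0.40. On the TPM scale the median log2 ratio of (TPM + 1) was 1.59 in the 34 and 0.20 in the 46. By medians of TPM a grass was the highest of all carbon sources in 32 of the 34 members and in 36 of the 46. For the 34, that grass was reed canary grass in 16, switchgrass in 13 and corn stover in 3. The rule keeps alfalfa stems and cellobiose from being the highest, so these counts are a description.

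The steepest grass members were not those with the highest scores. Locus399v1rpkm514.79, whose values are given above, rose by 5.26 ± 0.45 on the log2 scale (edgeR adjusted p = 2.55e-08). Locus1821v1rpkm51.77 (rank 39) had 241, 225 and 202 TPM on reed canary grass, 481 and 336 TPM on switchgrass and 323, 303 and 287 TPM on corn stover, against 19.5, 17.3 and 13.2 TPM on glucose, and its log2 fold change was 4.95 ± 0.42 (edgeR adjusted p = 2.11e-08). Locus869v1rpkm151.49 (rank 56) had 146, 114 and 136 TPM on reed canary grass, 65.7 and 60.8 TPM on switchgrass and 70.7, 41.3 and 64.5 TPM on corn stover, against 3.26, 5.04 and 8.24 TPM on glucose, and it rose by 4.56 ± 0.43 (edgeR adjusted p = 1.09e-07). In all 3 every grass library was far above every glucose library. Their scores are 1.32, 0.65 and 0.37, and glucose set H in all of them, at 31.1, 17.3 and 5.04 TPM, against an L of 11.9, 10.7 and 3.67 TPM. Locus2209v1rpkm39.38 was of the same kind, with 116 to 178 TPM on the grasses and a log2 fold change of 4.53 ± 0.38.

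In Locus1619v1rpkm61.70 the maltose libraries overlapped those of reed canary grass. It had 139, 104 and 128 TPM on reed canary grass, 51.1 and 34.4 TPM on switchgrass and 51.0, 31.9 and 61.6 TPM on corn stover, with 133, 110 and 149 TPM on maltose and 78.8, 60.7 and 64.3 TPM on glucose. Glucose was below reed canary grass and, by its median, above the other grasses. The grass mean did not pass the threshold against it (log2 fold change 0.66 ± 0.27, edgeR adjusted p = 0.0524), though it did in 12 of 20 alternatives (adjusted p between 0.00476 and 0.886). Locus2348v1rpkm36.24 did not pass it either (0.51 ± 0.46, edgeR adjusted p = 0.377), with 7.88 to 20.1 TPM on the grasses, against 7.36 to 29.9 TPM on glucose.

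Few differences between maltose and glucose passed the test. A single member, Locus881v1rpkm148.44, was called higher on maltose, by 1.67 ± 0.31 on the log2 scale (edgeR adjusted p = 0.0298), and none was called lower. The whole table had 0.108% higher and 0.00676% lower, and the transcripts with H of at least 5 TPM 0.25% and 0.0278%. Without adjustment 27 of the 80 members had p under 0.05, as did 626 of the 14800 transcripts tested. The call of Locus881v1rpkm148.44 was lost in 6 of 15 alternatives (adjusted p up to 0.240), among them leaving out any glucose library and leaving out maltose replicate 2 or 3, although its maltose libraries (177 to 205 TPM) and glucose libraries (58.0 to 61.9 TPM) were far apart. DESeq2 called 4 members and library size alone 5. The fitted values leaned one way all the same, with 65 of the 80 members above 0, against 8185 of all 14800 and 1341 of the 3602 tested with H of at least 5 TPM. The median was 0.48 over the members and 0.05 over all transcripts. Both sugars entered the rule. In the 34 members with a score of at least 1 the median was 0.77, and 31 of them had a higher TPM median on maltose than on glucose. In the other 46 the median was 0.23, and 26 had the higher TPM median on maltose. The score that divides these groups is computed from the same maltose and glucose medians, so nothing is read from their order. Since few differences between maltose and glucose passed the test singly, they are given as values.

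Between the low carbon sources, alfalfa stems were the higher in most members. The test called 22 members higher on alfalfa stems than on cellobiose and 1 lower, where the whole table had 5.32% higher and 6.70% lower, and the transcripts with H of at least 5 TPM 9.55% and 7.88%. The median log2 fold change was 0.47 over the members and -0.07 over all transcripts. Ranks 81 to 160 leaned the same way, with a median of 0.38 and 70 of the 80 above 0, against 68 of the 80 members. In those ranks 4 were called higher and 0 lower. Both carbon sources entered the rule. Without cellobiose replicate 3 the counts of the members were 19 and 1, and with the 2 compared groups alone in the fit 15 and 0.

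Locus881v1rpkm148.44 had the largest difference, at 4.36 ± 0.39 (edgeR adjusted p = 1.31e-06). Its cellobiose libraries held 27, 13 and 9 expected counts, against 184, 156 and 188 on alfalfa stems. Locus869v1rpkm151.49 had 2.78, 4.63 and 3.67 TPM on alfalfa stems against 0.10, 0.44 and 0.17 TPM on cellobiose (4.24 ± 0.67, edgeR adjusted p = 3.50e-04), and Locus1619v1rpkm61.70 had 5.43, 4.76 and 5.32 TPM against 0.82, 0.45 and 0.31 TPM (3.56 ± 0.42, edgeR adjusted p = 1.64e-05). Their libraries did not overlap. Locus4959v1rpkm11.41 (rank 40) went the other way, with 2.30, 0.64 and 1.68 TPM on alfalfa stems against 7.24, 5.38 and 3.59 TPM on cellobiose. It fell on alfalfa stems by 1.49 on the log2 scale (SE 0.44, edgeR adjusted p = 0.0292), a call lost in 5 of 14 alternatives (adjusted p up to 0.121), among them leaving out alfalfa stems replicate 2 or 3 or cellobiose replicate 1 or 2.

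By TPM the most abundant members are, apart from Locus187v1rpkm1607.33, members of the shallow tail. Locus274v1rpkm890.07 (rank 79) had 1085 to 1588 TPM on the grasses, 1128 to 1154 TPM on maltose and 1060 to 1249 TPM on glucose, against 995, 1216 and 824 TPM on alfalfa stems and 1154, 813 and 801 TPM on cellobiose. Its high and low libraries overlap, and it had 807, 772 and 817 TPM on Avicel. Locus282v1rpkm850.49 (rank 62) had 922 to 1006 TPM on glucose, against 558 to 821 TPM on alfalfa stems and 706 to 953 TPM on cellobiose. Locus167v1rpkm1866.84 (rank 54) had 849 to 1182 TPM on glucose, against 392 to 533 TPM on alfalfa stems and 668 to 766 TPM on cellobiose. Locus1597v1rpkm62.93 (rank 67) had 590 to 824 TPM on glucose, against 602 to 906 TPM on alfalfa stems and 549 to 666 TPM on cellobiose. These are differences of a fraction of the level, in transcripts whose TPM stayed high on every carbon source. Locus282v1rpkm850.49 and Locus1597v1rpkm62.93 each had a relative effective length of 0.0199, against 0.113 for Locus274v1rpkm890.07 and 0.820 for Locus167v1rpkm1866.84. The TPM of Locus282v1rpkm850.49 rested on 108 to 431 expected counts per library, and that of Locus1597v1rpkm62.93 on 96.8 to 436. On Avicel against glucose Locus1597v1rpkm62.93 was called higher at 0.72 ± 0.20 while its libraries overlapped at 635 to 820 TPM on Avicel and 590 to 824 TPM on glucose, and library size alone ended that call (log2 fold change 0.25, adjusted p = 0.341, the highest over its alternatives; the lowest was 5.90e-04).

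The share of all TPM held by the members is given for the 34 and the 46 apart. The score that divides them was computed from these TPM values, Avicel aside, so the wider range in the 34 is a description. The 34 members with a score of at least 1 held 0.396 ± 0.010% on Avicel, 0.763 ± 0.025% on reed canary grass, 0.636 ± 0.10% on switchgrass, 0.629 ± 0.057% on corn stover, 0.356 ± 0.045% on maltose, 0.194 ± 0.018% on glucose, 0.055 ± 0.003% on alfalfa stems and 0.039 ± 0.009% on cellobiose (mean ± SD, n = 3, on switchgrass 2). The high value on Avicel is largely 1 transcript. Without Locus187v1rpkm1607.33 the other 33 held 0.057 ± 0.008% on Avicel, 0.399 ± 0.023% on reed canary grass, 0.088 ± 0.008% on glucose, 0.023 ± 0.008% on alfalfa stems and 0.012 ± 0.003% on cellobiose, so that Avicel was then below glucose. The 46 members with a score under 1 held 0.458 ± 0.022% on Avicel, 0.962 to 1.06% on the means of the grasses, 0.698 ± 0.031% on maltose, 0.660 ± 0.061% on glucose, 0.487 ± 0.063% on alfalfa stems and 0.481 ± 0.047% on cellobiose.

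**Figure D5:**
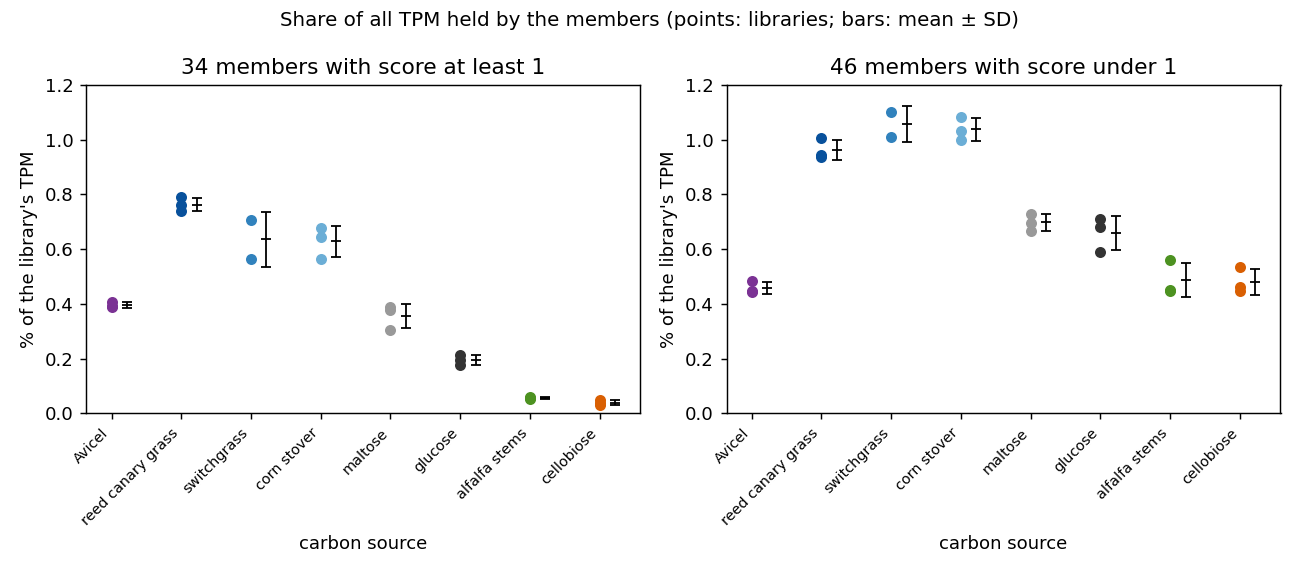
Share of each library's TPM (%) held by the 34 members with a score of at least 1 (left) and the 46 with a score under 1 (right), by carbon source; points are libraries and bars the mean ± SD. On the left the shares run from 0.763% on reed canary grass down to 0.039% on cellobiose, and on the right from 1.06% on switchgrass to 0.458% on Avicel.

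Versions of a locus share reads, so a member's level depends on how the authors' counting split them. Of the 80 members 12 (15%) belong to a locus with more than 1 version, against 18.3% of the transcripts with H of at least 5 TPM. Both versions of Locus1015 and of Locus632 are members. At Locus187 some versions go against the member and others follow it in part. Locus187v2rpkm775.74 had an H of 13.4 and an L of 114 TPM, and Locus187v7rpkm0.00_PRE had an H of 26.1 and an L of 334 TPM, the reverse of the member Locus187v1rpkm1607.33. Over the libraries their log2(TPM + 1) correlated with the member's at -0.34 and -0.35. The correlation was 0.60 for Locus187v3rpkm16.01_PRE, 0.74 for Locus187v5rpkm2.93_PRE and -0.06 for Locus187v4rpkm3.58_PRE. On glucose Locus187v3rpkm16.01_PRE and Locus187v5rpkm2.93_PRE had medians of 0.38 and 0 TPM. By the rule Locus187v3rpkm16.01_PRE was also the reverse of the member, with an H of 0.38 and an L of 25.4 TPM, its median on alfalfa stems. Summed over the locus, H was 1194 and L 795 TPM, and the score fell to 0.59, against 1.75 for the single version. The summed score was below 0 for the loci of 3 members, at -0.19 for Locus1786, -0.11 for Locus116 and -0.06 for Locus41.

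The ratio of expected count to TPM gives each transcript an effective length relative to the median transcript. It had a median of 1.27 in the 34 members with a score of at least 1 (quartiles 1.05 and 1.55) and of 0.652 in the other 46. In the transcripts ranked 81 to 160 it was 0.251, and in all with H of at least 5 TPM it was 0.750 (quartiles 0.390 and 1.18). The median of the 34 is above the upper quartile of all with H of at least 5 TPM, and that of ranks 81 to 160 is below the lower one. Whether length has a part in the scores was not tested.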

How the data were processed

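The authors deposited a table of expected counts and a table of TPM for N. californiae, with 1 value per transcript and library; the A. robustus tables were not used here. The expected counts are RSEM estimates, per the submitters' processing notes; no source used here gives its version, the aligner or the reference. The deposited TPM values correct for transcript length, and 10.2% of the deposited expected counts were not whole (tolerance 1e-09). Members were chosen from TPM. Tests used expected counts rounded to whole numbers in edgeR 4.0.16 (R 4.3.3): filterByExpr (minimum count 10, minimum total 15) kept 14800 transcripts, among them all 80 members, and 99.8% of the counts. TMM scaled the libraries (factors 0.636 to 1.43), and 1 quasi-likelihood model with a mean per carbon source was fitted to all 23 libraries. P-values were adjusted by Benjamini-Hochberg over all transcripts of a comparison, and a call is an adjusted p under 0.05. Fold changes carry their standard error (SE). The scripts were tested on simulated data.

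The members and lists were chosen with earlier results of these data known. Named were members with the highest scores and the highest H, the highest and lowest on Avicel, the called members with the largest fold changes in each direction of a comparison whose libraries did not overlap, and those beside the end of the list. Members and other transcripts outside this rule are given where the text says so or as sister versions. The alternatives were DESeq2 1.42.0, its size factors inside edgeR, library size alone, no filter, a 2-fold minimum, the replicate number as a block, the compared groups alone, counts per locus, each library left out, and other settings of the rule. Depth limits the low values: several on cellobiose rest on 10 expected counts or fewer.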

Additional observations from a re-analysis of the deposited data

How the results depend on the processing

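Of the alternative values of the counts (called members, members shared with the list, members at 5 TPM or more on Avicel), 111 stayed within 1.5 times the reported count and 15 did not. For single named members 817 alternative values kept direction and call, 55 lost the call, 22 gained it and 10 changed sign. A value of Locus274v1rpkm890.07 that both changed sign and was called, given below, is counted among the 10 alone. Leaving out 1 library gave 29 to 42 called members on Avicel against glucose, 35 to 39 on Avicel against cellobiose, 18 (without alfalfa stems replicate 2) to 36 on Avicel against alfalfa stems, 64 to 75 on the grasses against glucose, 0 to 2 on maltose against glucose and 17 to 24 on alfalfa stems against cellobiose. Without Avicel replicate 3 the members higher on Avicel than on glucose were 6, and without alfalfa stems replicate 2 those lower on Avicel than on alfalfa stems were 5; without Avicel replicate 2 or 3 they were 6 and 7. On maltose against glucose DESeq2 called 4, library size alone 5, the compared groups alone 0 and counts per locus 2; on alfalfa stems against cellobiose the compared groups alone gave 15, with fewer transcripts tested. The list of 80 shared 39 members with one made without a minimum of H and 42 with one made from TMM-scaled CPM, and 33 or more of the 34 with a score of at least 1 were in each. With H of at least 10 TPM it shared 57, of which 24 were among the 34, and without single libraries 68 to 78. The members at 5 TPM or more on Avicel were 56 to 59 without single Avicel libraries, 67 at a threshold of 2 TPM and 45 at 10 TPM.

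Signs turned in fold changes that the reported fit did not call. Locus288v1rpkm828.86 on Avicel against glucose went to -0.24 with library size alone and -0.12 with the replicate block, and ran between -6.38 (without Avicel replicate 3) and 1.75 without single libraries, -0.29 and -0.22 without glucose replicates 1 and 2; on the grasses against glucose it ran between -1.34 (without switchgrass replicate 1) and 2.55. On Avicel against glucose with library size alone, Locus274v1rpkm890.07 went to -0.44, which was called (edgeR adjusted p = 0.0237). Locus282v1rpkm850.49 went to -0.36 there and was not called. Without single libraries Locus274v1rpkm890.07 ran between -0.024 and 0.31 and Locus282v1rpkm850.49 between -0.039 and 0.26, both lowest without glucose replicate 2. The cause was not tested.

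The labels number the replicates, and libraries with 1 number deviated together in some groups only. The correlation of their deviations ran between -0.117 and 0.422 and was over 0.1 in 13 of 30 pairs. It was over 0.1 in every pair between switchgrass and reed canary grass and between switchgrass and corn stover, but in none of the 6 comparisons did every pair exceed it. Of 6 libraries in a comparison 0 to 3 correlated best with their own number. A fit with the replicate block called 41, 41, 33, 72, 1 and 24 members in the 6 comparisons, in the order above, against 36, 40, 30, 71, 1 and 23 without it.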
